A study of Mus musculus with 2 samples.

Results

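The enzymes described here build purine and pyrimidine nucleotides from small precursors, the de novo routes of nucleotide synthesis. Their members were 10 named genes, Cad, Umps, Ctps, Ppat, Gart, Paics, Atic, Impdh1, Impdh2 and Gmps, and a probe set was taken for a gene where the platform annotation listed that symbol alone. The rule found 24 probe sets for 9 of the 10 genes, of 34945 probe sets and 18193 genes named this way. No probe set was listed with Impdh2 as its only symbol, so its RNA is not analysed here and only its promoter sequence is described.

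RNA came from whole lungs of mouse embryos at embryonic day 18 and was read on 2 Affymetrix arrays. The wildtype group had 1 array, and the group homozygous for Nmyc9a, a hypomorphic allele of Mycn that leaves N-Myc function reduced, had 1 array. Each array was made from pooled lungs, and neither the size of a pool nor the strain or sex is stated in the labels. With 1 array per group no difference below has a replicate check, no test was run and no p-value is given. The only spread available here is how far probe sets of the same gene disagree. Over 5674 genes their log2 ratios had a pooled SD of 0.40, which is 1.32-fold. These probe sets read the same RNA on the same 2 arrays. The SD therefore leaves out variation between animals, pools and arrays, and is not the error of a difference between the groups.

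The purine route starts from phosphoribosyl pyrophosphate (PRPP), the activated ribose made by the PRPP synthetases, and builds the purine ring on it up to inosine monophosphate (IMP). IMP is then turned into the adenine or the guanine nucleotides. The pyrimidine route makes the ring first, joins it to PRPP to give uridine monophosphate (UMP), and ends at cytidine triphosphate (CTP). Dividing cells draw on these routes for RNA and DNA, and several of the genes are textbook targets of Myc proteins, which pair with Max and bind the E-box CACGTG.

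The E-box was looked for in the RefSeq promoters of the members, since the allele compared is one of a Myc gene. Promoters ran from 250 bases before to 50 bases after the annotated start (build GRCm38.p6), and all 10 genes matched an entry, 12 promoters in all. CACGTG reads the same on both strands and was the only motif searched. It was present in 3 of the 12 promoters, 1 each of Paics, Atic and Impdh2, where 7.15% of all 32851 promoters held it. By gene it was present for 2 of the 9 measured members, where it was present for 11.2% of the 10138 measured genes with a promoter. The promoters of Paics, Atic and Impdh2 held 65.7%, 69.7% and 61.7% G and C bases, beside a median of 52.7% over all promoters. Neither share is adjusted for base content. The 30 bases around each match are printed 5′ to 3′ on the strand of the gene, with the E-box in capitals, so that the flanks can be compared.
Paics, chr5:76951087-76951116, plus strand: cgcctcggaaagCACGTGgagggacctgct
Atic, chr1:71557137-71557166, plus strand: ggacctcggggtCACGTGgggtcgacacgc
Impdh2, chr9:108560314-108560343, plus strand: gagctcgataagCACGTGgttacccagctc

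The E-box began 203 bases before the start of Paics, 7 bases before that of Atic and 110 bases before that of Impdh2. The Paics match lies inside the annotated span of Ppat, which is read in the opposite direction, because the spans of Ppat (chr5:76913249-76951578) and Paics (chr5:76951302-76967509) overlap by 277 bases at their 5′ ends. A match is a description of these letters and does not show binding. Atic and Ctps were the only members with a probe set that differed by 1.5-fold or more, as described later, so the 250 bases before their starts are given (for Ctps, before the upstream of its 2 listed starts), with any E-box in capitals.
Atic, chr1:71556906-71557155, plus strand: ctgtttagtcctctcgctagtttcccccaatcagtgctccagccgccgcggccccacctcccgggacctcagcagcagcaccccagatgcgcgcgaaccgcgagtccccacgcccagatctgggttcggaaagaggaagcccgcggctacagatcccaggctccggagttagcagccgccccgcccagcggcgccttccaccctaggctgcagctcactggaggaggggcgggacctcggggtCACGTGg
Ctps, chr4:120570277-120570526, minus strand: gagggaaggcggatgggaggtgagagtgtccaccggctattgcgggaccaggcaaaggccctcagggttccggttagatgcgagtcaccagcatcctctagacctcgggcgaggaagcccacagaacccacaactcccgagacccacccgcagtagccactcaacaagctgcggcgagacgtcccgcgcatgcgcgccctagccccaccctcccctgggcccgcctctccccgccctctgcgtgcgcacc

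Signals below are after scaling of the Nmyc9a array, and pairs give the wildtype array first. Values under a floor of 49.7, the 40th percentile of all signals, were raised to it before ratios were taken. A probe set counts as measured where its mean signal reached the floor, and a gene is summarised by its brightest probe set. Log2 ratios are Nmyc9a over wildtype. The brightest measured Mycn probe set read 66.3 and 86.3, and another read 51.1 and 86.9. The position of these probes relative to the allele's alteration was not used here, so the values do not check the label, and every direction rests on it. All 10 lung epithelial markers with a probe set were measured, with summed signals of 34927.2 and 33931.9 and a median log2 ratio of 0.01. Of these, 2 were at least 1.5-fold lower, the surfactant protein gene Sftpd at 4595.0 and 2633.9 (-0.80) and the water channel gene Aqp5 at -0.68, and none was 1.5-fold higher. Over all measured genes, 8.74% were at least 1.5-fold lower and 6.89% higher. The highest of the markers were Abca3 at 0.18 and Scgb1a1 at 0.56, and Sftpc, the defining surfactant protein gene, read 8638.9 and 9120.3. Scgb1a1 passed 1.5-fold after quantile normalization (0.70) and after loess (0.74).

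As a group the de novo enzymes lay little apart from other genes, and only Ctps was past 1.5-fold. By brightest probe set 7 of the 9 measured genes had a log2 ratio below 0, where 56.3% of the 12604 measured genes did. Their median was -0.24, beside -0.06 for all measured genes, a gap of -0.17 before rounding. The probe set SD of 0.40 describes single probe sets, so it does not measure the error of this gap. The gap shrank to -0.07 with the floor at percentile 60 and to -0.10 after quantile normalization. Genes within 1.5-fold of a member's mean signal had medians from -0.23 (for Paics) to 0.03 (for Ppat). At least 1.5-fold lower was 1 of 9 (Ctps), against a background of 8.74% of all measured genes, and at least 1.5-fold higher was none, against 6.89%. Both shares are near the background, so the counts past 1.5-fold are no result about these enzymes. After quantile normalization the background became 10.94% lower and 5.10% higher, with the member counts as before. None of the 9 was 2-fold apart, against 1.21% of all measured genes lower and 1.40% higher by that rule.

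**Figure D1:**
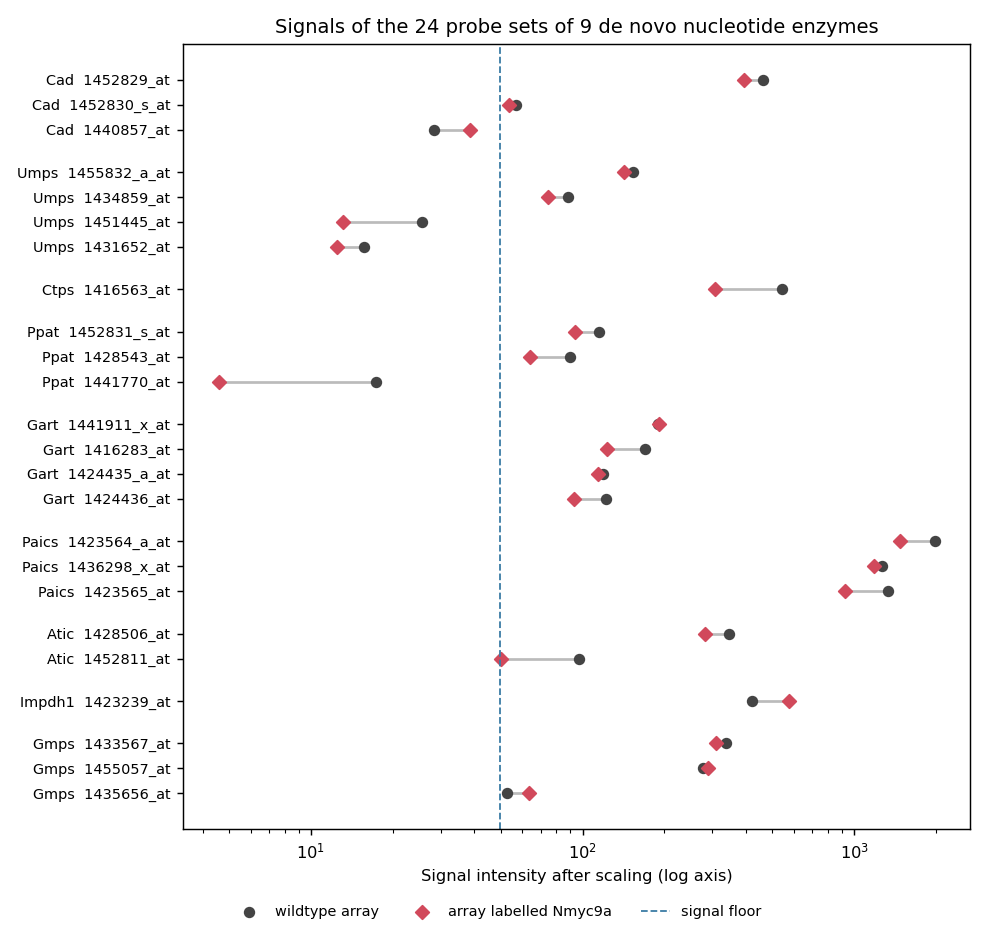
Signal intensity after scaling (log axis) of all 24 probe sets, grouped by gene, on the wildtype array (circles) and the array labelled Nmyc9a (diamonds); the dashed line is the floor of 49.7. Ctps has the widest gap among probe sets with both signals well above the floor (542.9 and 306.6), Impdh1 runs the other way (421.6 and 574.7), and 4 probe sets of Cad, Umps and Ppat lie below the floor on both arrays.

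Every probe set was then examined, since a gene's brightest probe set hides the others. Of the 24, 20 were measured and 16 of these were lower on the array labelled Nmyc9a, where 52.5% of all measured probe sets naming 1 gene were lower. At least 1.5-fold lower were 2 of the 20, 1 each for Ctps and Atic, against a background of 8.25%, and none was 1.5-fold higher, against 9.997%. The 4 probe sets not measured belonged to Cad (1), Umps (2) and Ppat (1), and each lay under the floor on both arrays. Among the 7 members with at least 2 measured probe sets, the pooled SD between probe sets was 0.24, smaller than the 0.40 over all genes. Probe sets of a gene share their RNA and are not replicates.

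The enzymes that build IMP had mostly small negative ratios. Ppat, the amidotransferase that commits PRPP to purine synthesis, read 114.7 and 94.0 by its brightest probe set (log2 ratio -0.29) and 89.7 and 63.8 by another (-0.49). Gart carries several of the next steps on a single protein, and its 4 probe sets disagreed. The brightest read 188.8 and 190.7 (0.01), while the others stood at -0.47, -0.06 and -0.40, so the near-equal signals of the brightest hold for that probe set only. The brightest was below 0, at -0.06, after quantile normalization or loess.

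Paics adds a carboxyl group and an aspartate to the forming purine. Its 3 probe sets read 1977.6 and 1469.2, 1268.9 and 1179.7, and 1334.6 and 925.3, with log2 ratios of -0.43, -0.11 and -0.53. All 3 were lower on the array labelled Nmyc9a, none by 1.5-fold, and the brightest ratio just exceeded the SD of 0.40. That ratio was -0.20 after quantile normalization and -0.24 after loess, both within the SD. Atic closes the ring to give IMP. Its brightest probe set read 344.6 and 282.5 (-0.29) and the other read 96.6 and 50.1 (-0.95, 1.93-fold lower). The lower of the Nmyc9a signals of Atic sits just above the floor, and the median of the gene's probe sets is -0.62, past 1.5-fold, where its brightest is not.

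The branch from IMP to guanine nucleotides had ratios on both sides of 0. Impdh1, an isoform of the dehydrogenase that is rate-limiting for GMP, was the highest member, with 421.6 and 574.7 (log2 ratio 0.45, 1.36-fold higher). It has a single probe set, the ratio is just past the SD of 0.40, and 88.5% of all measured genes had a lower ratio. Gmps, the synthetase that completes GMP, read 338.4 and 309.1 by its brightest probe set (-0.13), 278.1 and 288.8 by the second (0.05), and 52.6 and 63.4 by the third (0.27). Its probe sets straddle 0 and no direction can be given.

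All 3 pyrimidine members were below 0, with unequal sizes. Ctps, the synthetase that aminates UTP to CTP, read 542.9 and 306.6, a log2 ratio of -0.82 (1.77-fold lower). That is about as far as 2 SDs between probe sets, and 3.0% of measured genes had a lower ratio, but the gene has a single probe set. Cad, the multifunctional enzyme that opens the pyrimidine route, read 463.0 and 393.3 (-0.24) and, near the floor, 57.0 and 53.4 (-0.09). Umps, which converts orotate to UMP, read 152.9 and 141.5 (-0.11) and 88.0 and 74.3 (-0.24). The Cad and Umps ratios are within the SD between probe sets.

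**Figure D2:**
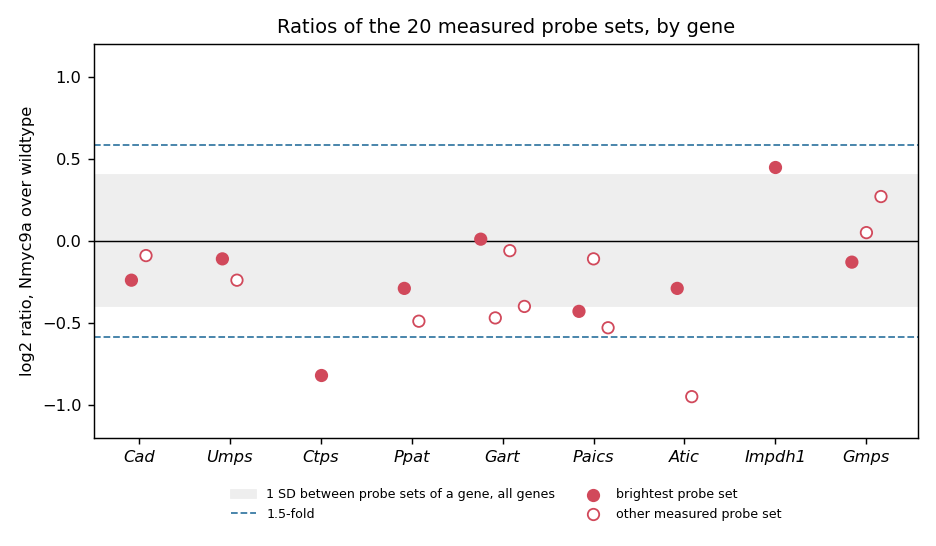
Log2 ratio (Nmyc9a over wildtype) of the 20 measured probe sets by gene, filled for the brightest probe set of a gene and open for the others; the grey band is 1 SD between probe sets of a gene (0.40) and the dashed lines are 1.5-fold. Ctps (-0.82) and the second Atic probe set (-0.95) lie beyond 1.5-fold, Impdh1 (0.45) is the highest, and the Gmps probe sets fall on both sides of 0.

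The remaining steps of the de novo routes had no common direction. Of 8 such genes with a probe set, 7 were measured, 1 was at least 1.5-fold higher, none was 1.5-fold lower and the median was -0.02. Prps2, a PRPP synthetase, read 256.5 and 545.3 by its brightest probe set (2.13-fold higher, log2 ratio 1.09), while its other probe sets stood at 0.45 and 0.21. Prps1, the other PRPP synthetase of the list, read 283.3 and 235.4 (-0.27). The median of the Prps2 probe sets, 0.45, is under 1.5-fold.

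Adss, the first enzyme from IMP to AMP, read 951.2 and 683.3 (-0.48), and Adsl, which acts both before IMP and in the AMP branch, read 119.3 and 90.7 (-0.40). Pfas, an amidotransferase of the purine ring, stood at 0.23 (96.6 and 113.3). Dhodh, the mitochondrial step of pyrimidine synthesis, read 52.6 and 56.1, close to the floor (0.09). Ctps2, the second CTP synthetase, had 3 probe sets at -0.02, -0.54 and 0.26, the -0.54 being a bound because its Nmyc9a signal of 35.1 was below the floor. Adssl1 was below the floor on both arrays.

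**Figure D3:**
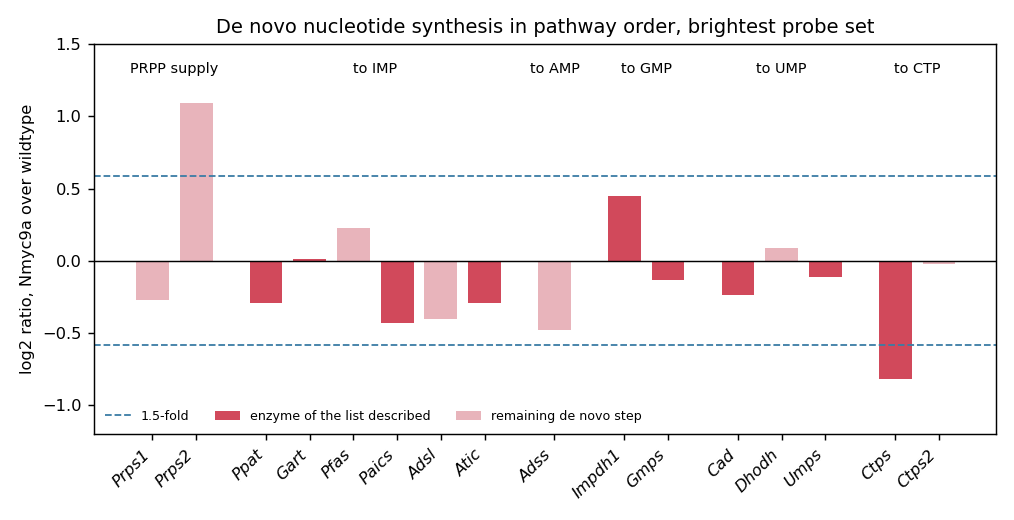
Log2 ratio (Nmyc9a over wildtype) by brightest probe set of 16 de novo genes in the order of their routes, dark for the enzymes described and pale for the remaining steps; dashed lines are 1.5-fold. Only Prps2 (1.09) and Ctps (-0.82) pass 1.5-fold, and the bars between PRPP and IMP run from -0.43 to 0.23.

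Lists of the neighbouring steps were set beside the enzymes, each against the same background of 8.74% lower and 6.89% higher. Deoxynucleotide synthesis, which turns these nucleotides into DNA precursors, had 3 of 7 measured genes past 1.5-fold on the lower side and none on the higher, and its median was -0.53. Rrm1 and Rrm2 are the subunits of ribonucleotide reductase. Rrm1 read 437.6 and 253.2 (-0.79) with another probe set at -0.99, and the 3 Rrm2 probe sets stood at -0.86, -0.88 and -0.89. Dut, the dUTPase, read 185.7 and 97.6 (-0.93) by its brightest probe set, but its other probe set, 46.8 and 63.8, stood at 0.36 or higher. Rrm2b, the reductase subunit used outside S phase, stood at -0.02 by its brightest probe set and at -0.59 by the other, and Samhd1, which degrades deoxynucleotides, at -0.01.

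Salvage enzymes, which reuse free bases and nucleosides, had 4 lower genes of 12 measured, no higher one and a median of -0.41. Tk1, the thymidine kinase of S phase, was at least 2.79-fold lower, with signals of 138.7 and 36.0, the second below the floor. Upp1, uridine phosphorylase, read 167.9 and 94.4 (-0.83), and Pnp and Dck were 1.60-fold and 1.52-fold lower. Uckl1 at 0.07 and Aprt, adenine phosphoribosyltransferase, at 0.19 were the highest of the list, and the other Aprt probe set stood at -0.36. Hprt, the salvage enzyme for hypoxanthine and guanine, stood at -0.48. Adk stood at -0.19 by its brightest probe set, and its other measured probe sets ran from -0.13 to 1.05.

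The supply of one-carbon units and serine, which feeds carbon to the purine ring, had 1 of 11 measured genes lower, none higher and a median of -0.17. The lower gene was Psat1, a transaminase of serine synthesis, at 724.5 and 376.1 (1.93-fold lower), with its other probe set at -0.89. Aldh1l1 stood at -0.55, Shmt1 at 0.27 and Mthfd1l at 0.28. Phgdh stood at -0.02 by its brightest probe set and at -0.07, -0.45 and 1.09 by the others. The pentose phosphate pathway, the source of the ribose in PRPP, had 2 lower genes of 7, no higher one and a median of -0.34. Pgls (1.53-fold) and Rpe (1.51-fold) were only just past 1.5-fold, and Rpia stood at 0.14. Pgd stood at 0.24 by its brightest probe set and below 0 by its other 3.

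Markers of dividing cells were lower on the array labelled Nmyc9a. For every marker count in this paragraph the background is again 8.74% of all measured genes lower and 6.89% higher. All 24 proliferation genes with a probe set were measured and 24 were below 0, 21 of them at least 1.5-fold lower, with a median of -0.90. The lowest were Mcm5, of the replicative helicase, at -1.78 and Kif23 at -1.32, the highest Ccnb2 at -0.39 and Aurkb at -0.13, and their summed signals were 8944.9 and 4851.2. By brightest probe set the ratio of each de novo member was above the proliferation median. The second Atic probe set, at -0.95, was below it. Liver markers moved the other way: 9 of 12 were measured and 7 of them were at least 1.5-fold higher. Their median was 1.26 and their summed signals were 528.5 and 1588.9, while Apob, Fgb and Ahsg were below the floor in mean signal. Hpx, Fgg, Apoa1, Fga and Ttr had wildtype signals below the floor, so their ratios are bounds. They counted as measured only through the array labelled Nmyc9a, which fixed their direction. With the floor at percentile 60 the count of higher liver genes fell from 7 to 3. Alb stood at 2.02 and Afp at 1.98, Apoa2 at 0.40 and Hpx at 0.33 or higher. The Afp ratio was smaller, 1.25, when the gene was summarised by the median. It was 0.87 when probe sets with those name endings were left out. Erythroid markers had 2 of 8 lower, Trim10 at -1.32 and Slc4a1 at -0.75, with Rhd at 0.09 and Hbb-y at 0.13, a median of -0.17 and summed signals of 6039.0 and 4687.3. In whole-lung RNA fewer cells of a type and less RNA per cell cannot be told apart, and the part of these cell types in the ratios of the de novo enzymes was not tested.

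**Figure D4:**
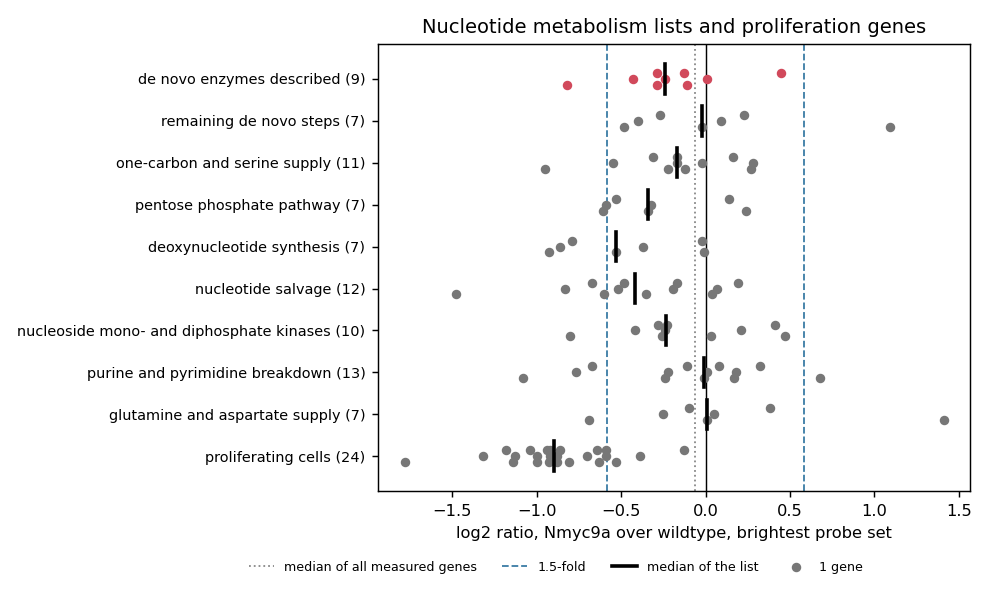
Log2 ratio (Nmyc9a over wildtype) by brightest probe set of each measured gene (points) with the list median (black bar), for the de novo enzymes, 8 lists of neighbouring steps and proliferation genes; the number of measured genes is in brackets. The de novo enzymes have a median of -0.24, deoxynucleotide synthesis -0.53 (with Dut at -0.93 here and at 0.36 by its other probe set) and proliferation genes -0.90, and the dotted line at -0.06 is the median of all measured genes.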

How the data were processed

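The authors deposited a signal intensity on a linear scale for each of 45101 probe sets. Per the labels, total RNA was purified with Trizol and RNeasy, and biotin labelling followed the Affymetrix procedure. The software that gave the signals, and any scaling by it, is unstated in these sources. After 64 control probe sets were left out, the Nmyc9a array was scaled by 0.994, which set the median log2 ratio to 0 over probe sets with both deposited signals at or above their 40th percentile. That percentile of the scaled signals, 49.7, was the floor. Symbols of the platform annotation were updated through Entrez identifiers to RefSeq (GRCm38.p6), which matched 34741 of 34945 probe sets with 1 symbol; 932 named several genes and 9160 none. Of 18193 genes, 12604 (69.3%) were measured. The size rule was 1.5-fold. Named genes were all members, every remaining de novo step, and the 2 highest and 2 lowest of each list. Pnp, Dck, Hprt, Rrm1, Sftpc, Phgdh, Adk, Fgg, Apoa1, Fga and Ttr were named after their values were seen. Members and lists were chosen with earlier results of these data known. Scripts ran in Python 3.11.15 with numpy 2.4.6 and pandas 2.3.3 and were tested on simulated arrays. The alternatives were values as deposited, quantile normalization, loess (span 0.3), the floor moved to percentile 20 or 60, no floor, a pseudocount of 16, the median of probe sets, leaving out x, s and a probe sets (names ending in _x_at, _s_at or _a_at), and a 2-fold rule. The number of arrays limits the precision.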

Additional observations from a re-analysis of the deposited data

How the results depend on the processing

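The median log2 ratio of the members stayed below 0 in all 10 settings computed, from -0.29 to -0.17, but so did that of all measured genes (-0.10 to -0.03). Relative to all genes the members' median ran from -0.25 without x, s and a probe sets to -0.07 with the floor at percentile 60. No member was 1.5-fold higher in any setting. Ctps ranged from -0.82 to -0.75 and Impdh1 from 0.43 to 0.55. The count of members at least 1.5-fold lower was 1, became 2 when probe sets were summarised by their median (Atic added) and was 0 by the 2-fold rule. The count of member probe sets was 2, became 4 after quantile normalization or loess (1 probe set each of Ppat and Gart added), 1 when the floor was percentile 60 and 0 by the 2-fold rule. Without x, s and a probe sets Gart stood at -0.47, and Gmps was above 0 (0.05) by the median of its probe sets. For the lists, alternatives were added after the data were seen. Dut reversed to 0.36 without x, s and a probe sets, Prps2 was 0.45 by the median of its probe sets, the count of lower pentose phosphate genes was 0 after quantile normalization, loess or with the pseudocount, and the proliferation median ran from -0.92 to -0.85. The cause was not tested. No paired analysis was possible because each group has 1 array, and for the same reason no replicate could be left out. Signals near the floor limit Dhodh, Cad's second and Atic's second probe set.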

Other observations

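Further lists of nucleotide metabolism had medians from -0.24 to 0.01, beside -0.06 for all measured genes. Their counts past 1.5-fold stand beside the same background of 8.74% of measured genes lower and 6.89% higher. Of 13 measured genes of purine and pyrimidine breakdown, 3 were at least 1.5-fold lower and 1 higher, with a median of -0.01. Nt5c, a nucleotidase, read 295.0 and 139.4 (2.12-fold lower), and Itpa, which clears inosine triphosphate, had probe sets at -0.77 and 0.43, the first the brighter. Uox, urate oxidase, was at least 1.60-fold higher (49.4 and 79.6), from a wildtype signal below the floor. Ampd2 stood at 0.32.

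Of 7 measured genes listed for the handling of glutamine and aspartate, donors of ring nitrogens, 1 was lower and 1 higher, with a median of 0.01. Slc7a5, an exchanger of large neutral amino acids, read 81.7 and 216.7 (2.65-fold higher) on its single probe set. Got1, which makes aspartate in the cytosol, read 101.6 and 63.0 (1.61-fold lower), and Glul, glutamine synthetase, stood at 0.38. Slc1a5, a glutamine transporter, stood at -0.25 by its brightest probe set and at 1.01 by the other. Among 10 nucleoside mono- and diphosphate kinases, 1 was lower, none was higher and the median was -0.24. Nme1 was the lower gene (1.74-fold), with its other probe set at -0.43, beside Guk1 at -0.42, Cmpk2 at 0.41 and Ak4 at 0.47, whose other measured probe set read 140.5 and 142.4 (0.02).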
